A study of Drosophila melanogaster with 6 samples.

Results

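The genes examined here are 8 regulators and enzymes that mark the salivary gland of Drosophila melanogaster. They were picked by name for their known place in the gland, by a rule that uses no measured value, though with earlier results of these data known. They comprise the transcription factor genes sage, fkh, CrebA, rib and eyg and the enzyme genes PH4alphaSG1, PH4alphaSG2 and pip. All 8 were found among the 17562 genes of the count table, and all 8 were among the 10632 genes with enough counts to be tested. RNA-seq was done on whole larvae to find genes whose transcript level differs when CDK8 is lost. The levels therefore sum over every tissue of the animal and not over the gland alone. The cdk8K185 group consisted of 3 libraries, each from 10 homozygous larvae of the last instar at the wandering stage. The w1118 group, the control strain, consisted of 3 libraries of 10 larvae of that stage. The study describes cdk8K185 as a null allele of Cdk8, the kinase of the Mediator complex, that also removes part of the neighbouring gene I-2, so both genes were affected in the mutant and the groups differ in more than Cdk8. It is 1 allele, kept over a balancer and outcrossed to w1118, and homozygotes live to the pupal stage on the maternal supply of CDK8.

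The depth was similar in all libraries, with totals from 9208564 to 11724703 counts. Levels are given as CPM, counts per 1000000 with library sizes scaled by the TMM factors of edgeR. The floor for detection was set at 3 counts, which were worth 0.253 to 0.323 CPM. A change is given as the log2 fold change of cdk8K185 over w1118 with its standard error (SE), and a gene was called when its edgeR adjusted p, taken over all genes tested, was under 0.05. As a check of the labels, I-2 was at 5.38 ± 0.212 CPM in cdk8K185 and 31.5 ± 3.83 CPM in w1118 (SD, n = 3 each), and Cdk8 was at 6.14 ± 1.28 CPM in cdk8K185 and 9.49 ± 0.643 CPM in w1118 (SD, n = 3 each). The mutant thus held 17.1% of the control level of I-2, a call kept in all 14 alternatives. It held 64.7% of that of Cdk8, whose call was lost in 8 of 14, 5 of them with 1 library left out. I-2 is therefore the firmer check of the label. The study describes the allele as a deletion that takes in Cdk8. The Cdk8 level does not bear that out, and the source of the Cdk8 counts in the mutant was not tested.

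The salivary gland arises in the embryo under the Hox gene Scr, and its fate is then held by Fkh, a FoxA protein, and Sage, a basic helix-loop-helix protein found largely in the gland. CrebA, a bZIP factor, raises the secretory capacity of the gland by activating genes of the early secretory pathway. Late in larval life the polyploid gland cells make glue proteins, which fix the animal to a surface when it forms the puparium. Apart from sage, most of these genes also act in other tissues: fkh in the gut, CrebA in the epidermis and trachea, rib in the trachea, eyg in the eye disc, and pip in ovarian follicle cells.

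The 8 genes did not move as a block. At an edgeR adjusted p under 0.05, sage, fkh, rib and eyg were lower in cdk8K185, PH4alphaSG1, PH4alphaSG2 and pip were higher, and CrebA was not called. These are 7 of 8 genes, where 36.9% of all genes tested were called, 19.9% as higher and 17.0% as lower. The same 7 genes had no overlap in CPM between cdk8K185 and w1118 libraries, as had 53.6% of all genes tested. The median log2 fold change of the 8 genes was -0.21, and that of all genes tested was 0.02. Over the alternatives the number called among the 8 ran from 4 to 7, with 4 called without cdk8K185 replicate 2 and 4 called without w1118 replicate 2. Only sage, PH4alphaSG1 and PH4alphaSG2 were called in all 14 alternatives.

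**Figure D1:**
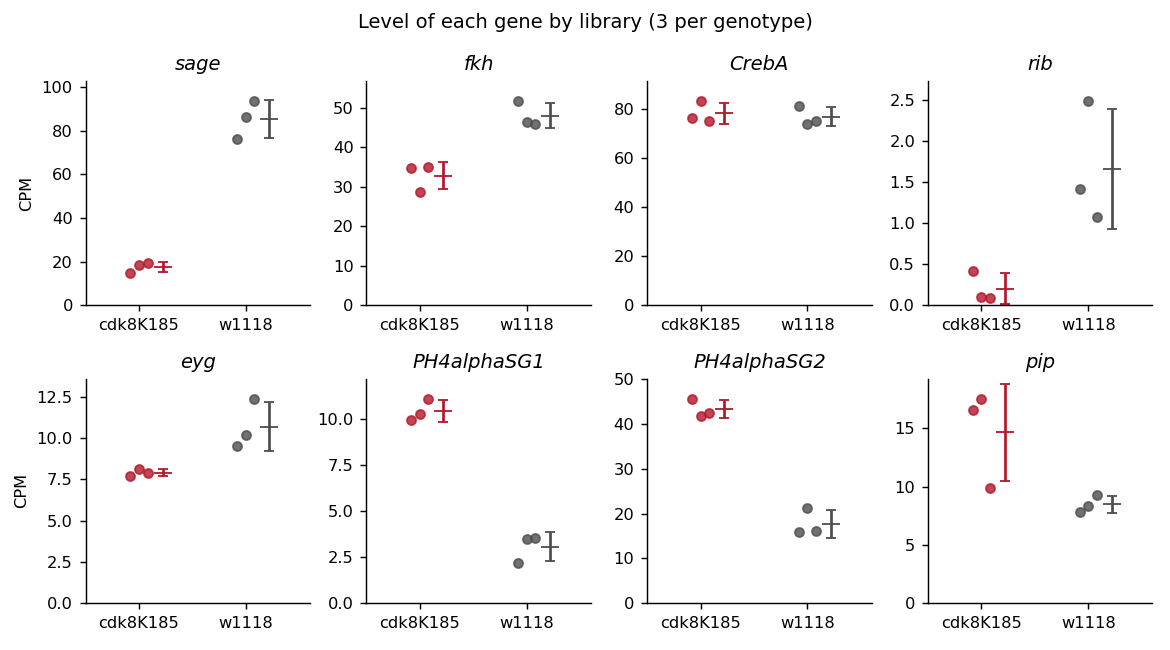
CPM (vertical axis, from 0) of each of the 8 genes in the 3 cdk8K185 libraries (red) and the 3 w1118 libraries (grey), with bars for the mean ± SD. The genotypes are apart for every gene except CrebA, and the cdk8K185 points lie below those of w1118 for sage, fkh, rib and eyg and above them for PH4alphaSG1, PH4alphaSG2 and pip.

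Among the transcription factors, sage showed the clearest fall. The gene (FBgn0037672, 3R:9262654-9264142, minus strand, 2 merged exons, BDGP6.54) was at 14.9, 18.3 and 19.3 CPM in the cdk8K185 libraries, against 76.1, 86.1 and 93.4 CPM in the w1118 libraries. The highest mutant library was thus far under the lowest control library. The mean was 17.5 ± 2.26 CPM in cdk8K185 and 85.2 ± 8.67 CPM in w1118 (SD, n = 3 each), so the mutant held 20.5% of the control level (log2 fold change -2.28, SE 0.13, edgeR adjusted p 6.05e-05). In whole larvae, fewer gland cells and less RNA per gland cell cannot be told apart. The study reports that Cdk8 mutation affects genes of metamorphosis, and a difference in developmental timing between the genotypes was not tested. Of all genes tested, 4.98% had a log2 fold change as low as that of sage or lower. Its value ran from -2.36 to -2.06 over the alternatives and was called in each of the 14.

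For fkh (FBgn0000659, 3R:28580976-28585264, minus strand, 1 exon) the decrease was much smaller. It gave 34.6, 28.8 and 35.0 CPM in the cdk8K185 libraries, against 51.6, 46.4 and 45.9 CPM in the w1118 libraries, and the mutant held 68.4% of the control level (log2 fold change -0.55, SE 0.11, edgeR adjusted p 0.00749). Libraries of the 2 groups did not overlap, and the call was kept when any single library was left out. The call depended on the scaling, since with library totals alone the log2 fold change was -0.34 (edgeR adjusted p 0.0606). Those totals moved the values of all genes up by a median of 0.22 on the log2 scale.

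CrebA (FBgn0004396, 3L:15535395-15553214, plus strand) was nearly level between the genotypes. The cdk8K185 libraries gave 76.4, 82.9 and 75.0 CPM and the w1118 libraries 81.1, 73.8 and 75.0 CPM, so the ranges of the genotypes crossed. The log2 fold change was 0.03 (SE 0.09, edgeR adjusted p 0.827), with a 95% interval from -0.18 to 0.23 on the log2 scale. Its direction was not fixed, as it was below 0 with DESeq2, with RLE size factors, with at least 10 counts in every library and without cdk8K185 replicate 2, while library totals gave 0.24 (edgeR adjusted p 0.128).

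The BTB-domain factor rib, needed for the elongation of the gland and tracheal tubes in the embryo, was close to the limit of detection. The gene (FBgn0003254, 2R:19270078-19281396, plus strand) had 5, 1 and 1 counts in the cdk8K185 libraries, against 15, 25 and 10 counts in the w1118 libraries. Of the mutant libraries, 2 were therefore under the floor of 3 counts. Summed over libraries, 7 counts in cdk8K185 stood against 50 in w1118, a ratio of 0.124 with an exact 95% interval of 0.0476 to 0.276 that covers counting error only. The fit gave -2.94 on the log2 scale (SE 0.69, edgeR adjusted p 0.0144), and the call was lost without cdk8K185 replicate 2 (-2.63, edgeR adjusted p 0.0505) and without w1118 replicate 2 (-2.54, edgeR adjusted p 0.0584). Without cdk8K185 replicate 1, which had the 5 counts, the value was -4.01. A nearby gene was noticed after its values were seen: tbrd-2, between wbl and rib on the same arm, had 3, 6 and 0 counts in cdk8K185 and 55, 90 and 17 counts in w1118, with the w1118 libraries in the same order as for rib. The part of neighbouring transcription in the rib counts was not tested.

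The Pax-family gene eyg, which acts in the salivary duct and in growth of the eye disc, was slightly lower in the mutant. It (FBgn0000625, 3L:12462537-12468021, minus strand) gave 7.69, 8.12 and 7.91 CPM in the cdk8K185 libraries, against 9.55, 10.2 and 12.4 CPM in the w1118 libraries. The groups did not overlap, but they came close (log2 fold change -0.44, SE 0.14, edgeR adjusted p 0.0478). This call was kept in 3 of the 14 alternatives. It was lost with DESeq2 (-0.48, adjusted p 0.0929), with limma-voom, with library totals (-0.22, edgeR adjusted p 0.28) and without any 1 library other than w1118 replicate 1, and without w1118 replicate 3 the value was -0.31 (edgeR adjusted p 0.14). The paralog toe, which lies 29.9 kb from eyg, was at 8.64 ± 2.05 CPM in cdk8K185 and 9.82 ± 0.792 CPM in w1118 (SD, n = 3 each) and was not called (log2 fold change -0.18, SE 0.19, edgeR adjusted p 0.474).

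Both prolyl hydroxylase genes were higher in the mutant. Their products are alpha subunits of prolyl 4-hydroxylase, an enzyme of the endoplasmic reticulum known for the hydroxylation of prolines in collagen, and the genes were named for their expression in the salivary gland of the embryo. PH4alphaSG1 (FBgn0051014, 3R:30503665-30505661, minus strand) gave 9.97, 10.3 and 11.1 CPM in the cdk8K185 libraries, against 2.17, 3.47 and 3.55 CPM in the w1118 libraries. Every mutant library was above every control library, and the mean level was 3.41 times that of w1118 (log2 fold change 1.77, SE 0.21, edgeR adjusted p 0.00101).

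PH4alphaSG2 (FBgn0039779, 3R:30490074-30491987, plus strand) had the higher level of the pair, also per length, with 45.6, 41.9 and 42.6 CPM in the cdk8K185 libraries, against 15.8, 21.2 and 16.0 CPM in the w1118 libraries. Its mean level was 2.45 times that of w1118 (log2 fold change 1.29, SE 0.13, edgeR adjusted p 0.00054). Over the alternatives the log2 fold change ran from 1.57 to 1.99 for PH4alphaSG1 and from 1.21 to 1.51 for PH4alphaSG2. The end of PH4alphaSG2 shares 128 exon bases with PH4alphaMP on the other strand, and where counting ignored strand the reads of that stretch cannot be told apart. PH4alphaMP differed in the other direction, with 131, 123 and 98.6 CPM in cdk8K185 and 155, 216 and 159 CPM in w1118.

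Other genes of this enzyme family differed in both directions. PH4alphaPV was higher in cdk8K185 (14.3 ± 2.64 against 8.02 ± 1.80 CPM in w1118, SD, n = 3 each, log2 fold change 0.84, edgeR adjusted p 0.0203). PH4alphaEFB and PH4alphaMP were lower, with log2 fold changes of -0.49 (edgeR adjusted p 0.019) and -0.59 (edgeR adjusted p 0.0307). The PH4alphaNE1 gene was not tested and had 25, 3 and 13 counts in cdk8K185 and 0, 0 and 2 in w1118, while PH4alphaNE2 and PH4alphaNE3 had at most 1 count in any library. The list of these 6 paralogs with Pdi, Plod and the collagen IV genes Col4a1 and vkg held 7 tested genes, of which 1 was higher, 2 were lower and 4 were not called, a share called of 42.9% beside 36.9% of all genes, with a median log2 fold change of 0.05. The collagen IV genes had values of 0.05 for Col4a1 and 0.05 for vkg and were not called. Whether their products are substrates of the PH4alphaSG enzymes was not tested. With library totals neither PH4alphaEFB (-0.27, edgeR adjusted p 0.164) nor PH4alphaMP (-0.38, edgeR adjusted p 0.0852) was called. Leaving out 1 library also ended calls in the list: 1 gene was called without cdk8K185 replicate 1 and 1 without cdk8K185 replicate 2. PH4alphaPV lost its call in both of these, and PH4alphaEFB and PH4alphaMP lost theirs in 3 of the 6 fits each.

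The PH4alphaSG genes lie 11.68 kb apart, with PH4alphaMP, PH4alphaNE1 and CG31371 between them. In that stretch and 30 kb to each side, a window set with the data at hand, 10 of 19 genes were tested. Of these, 3 were higher (CDase, PH4alphaSG1 and PH4alphaSG2), 3 were lower (PH4alphaEFB, PH4alphaMP and Jon99Fi) and 4 were not called. Of all genes tested, 19.9% were called as higher and 17.0% as lower. The window was drawn around the PH4alphaSG genes, already called, and PH4alphaEFB and PH4alphaMP were counted above. Its counts therefore cannot show whether the region differs from all genes.

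The sulfotransferase gene pip was moderately higher. Relative to its mean it had the widest spread among the mutant libraries of the genes above the floor (SD 28.4% of the mean). Pipe acts in the Golgi, is best known for its role in setting the dorsoventral axis of the egg, and is also expressed in the salivary gland. The gene (FBgn0003089, 3L:19298623-19337609, minus strand, 32 merged exons and 11 annotated transcripts, which gene counts do not resolve) gave 16.6, 17.5 and 9.89 CPM in the cdk8K185 libraries, against 7.85, 8.34 and 9.26 CPM in the w1118 libraries. The groups did not overlap, but cdk8K185 replicate 3 was close to the highest control library (log2 fold change 0.79, SE 0.23, edgeR adjusted p 0.0313). An RNA made in males, lncRNA:roX1, was at 755, 945 and 252 CPM in cdk8K185 and 202, 427 and 451 CPM in w1118, so it was lowest in the mutant library in which pip was lowest.

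With the roX1 level as a further term, chosen after seeing the data, the log2 fold change of pip was 0.48 (edgeR adjusted p 0.0656), and without cdk8K185 replicate 3 it was 1.03 (edgeR adjusted p 0.00388). The call was lost without any 1 of the other 5 libraries, with log2 fold changes from 0.65 without cdk8K185 replicate 2 to 0.87 without w1118 replicate 3. Values were 0.69 without cdk8K185 replicate 1, 0.73 without w1118 replicate 1 and 0.78 without w1118 replicate 2. It was also lost with limma-voom (0.74, adjusted p 0.0552). The 3′ ends of pip and fal share 208 exon bases on opposite strands, and where counting ignored strand their reads there cannot be told apart. The fal gene was not called, at 17.6 ± 1.38 CPM in cdk8K185 and 17.9 ± 0.921 CPM in w1118 (SD, n = 3 each).

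Of the partners of Pipe, wbl stood out. Windbeutel is a chaperone of the endoplasmic reticulum that Pipe needs in order to reach the Golgi. In cdk8K185 wbl was at 6.59, 9.10 and 11.5 CPM, against 55.5, 40.1 and 56.5 CPM in w1118. The groups were far apart and the mutant held 17.9% of the control level (log2 fold change -2.48, SE 0.23, edgeR adjusted p 0.00042), a call kept in all 14 alternatives. Thus wbl was lower in the libraries in which pip was higher. The other 4 genes of the list, sll and Papst2, which carry the sulfate donor into the Golgi, Papss, which makes it, and the related sulfotransferase gene Hs2st, were not called, with values from -0.10 to 0.18 on the log2 scale. The share called in the list was 20%, beside 36.9% of all genes. With library totals 3 of the 5 were called, 2 of them as higher. Under that setting 4655 of all 10632 genes tested were called, 3452 of them as higher. On the 2R arm wbl lies 19.2 kb from rib, so these genes, both lower in the mutant, are close neighbours. Of the 4 genes between them only tbrd-2 was tested, and the others had at most 1 count in any library.

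Levels per length of merged exon placed the genes in another order in each genotype. In cdk8K185 the order was PH4alphaSG2 at 25.8, CrebA at 17.4, sage at 12.3, fkh at 7.65, PH4alphaSG1 at 6.11, eyg at 2.51, pip at 1.34 and rib at 0.0433 CPM per kb, with no overlap between neighbours. In w1118 sage was highest at 59.7 CPM per kb, followed by CrebA at 17.0, fkh at 11.2, PH4alphaSG2 at 10.5, eyg at 3.40, PH4alphaSG1 at 1.80, pip at 0.774 and rib at 0.356 CPM per kb. Among these, only fkh and PH4alphaSG2 overlapped over the 3 libraries. Thus sage was below PH4alphaSG2 and CrebA in cdk8K185 but had the highest level in w1118.

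**Figure D2:**
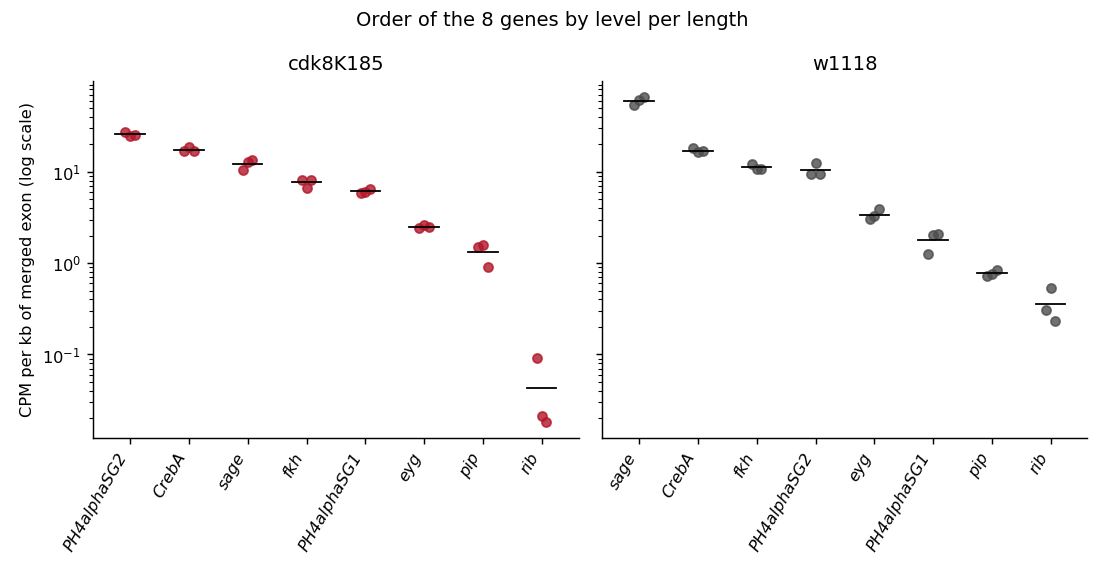
CPM per kb of merged exon (log axis) of the 8 genes in order of their mean, in cdk8K185 on the left and w1118 on the right, with a point per library and a line at the mean. PH4alphaSG2 leads in cdk8K185 at 25.8 CPM per kb and sage leads in w1118 at 59.7 CPM per kb.

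Ratios of counts between genes of 1 library do not depend on the scaling between libraries, and they were used to compare the genes with each other. The ratio of sage to fkh was 0.432, 0.636 and 0.550 in the cdk8K185 libraries, against 1.47, 1.85 and 2.04 in the w1118 libraries. In each mutant library fkh had more counts than sage, and in each control library fewer. The ratio of fkh to CrebA was 0.422 ± 0.0654 in cdk8K185 and 0.626 ± 0.0125 in w1118 (SD, n = 3 each), again without overlap. For both of these ratios the exact permutation test, two-sided, gave p = 0.1, which is the smallest p that 3 against 3 libraries can give.

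The ratio of PH4alphaSG2 to PH4alphaSG1 overlapped between the genotypes, at 4.16 ± 0.377 in cdk8K185 and 5.96 ± 1.38 in w1118 (SD, n = 3 each, exact permutation test, two-sided, p = 0.2). By contrast, the ratio of PH4alphaSG2 to its overlapping neighbour PH4alphaMP was 0.347, 0.340 and 0.432 in cdk8K185 and 0.102, 0.0985 and 0.101 in w1118. The ratio of pip to wbl was 2.51, 1.92 and 0.858 in cdk8K185, against 0.141, 0.208 and 0.164 in w1118. The last 2 ratios were higher in every mutant library than in every control library. That had to be so, because the first gene of each pair was higher and the second lower without overlap. These ratios therefore restate the levels given above and add no support. The ratio of eyg to toe overlapped (exact permutation test, two-sided, p = 0.4). In all, 10 ratios were computed, and p-values from 3 against 3 libraries could not pass the threshold for any of them.

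**Figure D3:**
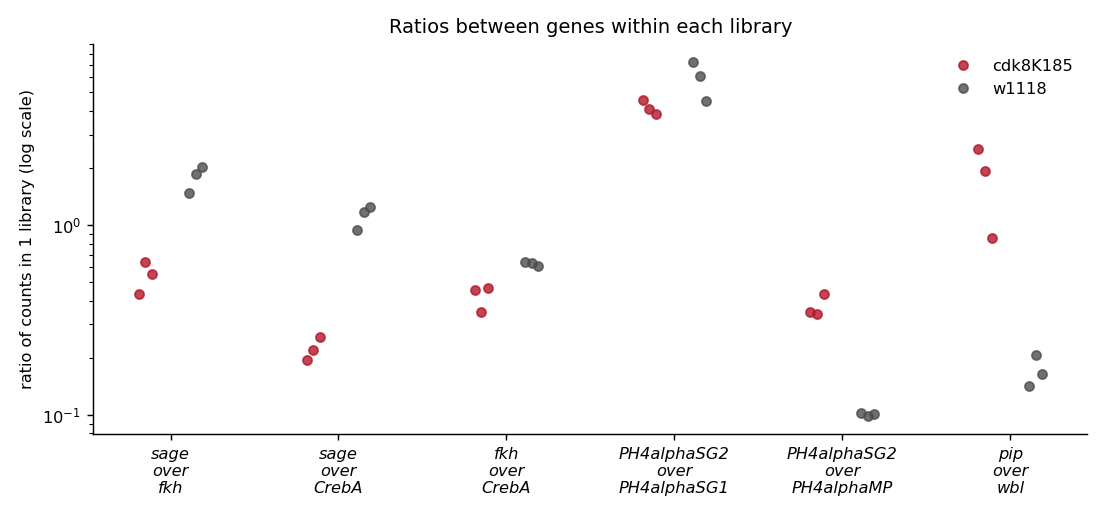
Ratio of the counts of 2 genes within each library (log axis), with cdk8K185 in red on the left of each pair and w1118 in grey on the right. Sage is below fkh only in the cdk8K185 libraries. It is below CrebA in these and, at a ratio of 0.938, in w1118 replicate 1. Of the 6 ratios shown only that of PH4alphaSG2 to PH4alphaSG1 overlaps between the genotypes.

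Glue genes and Eig71Ee were taken as markers of the gland beside these regulators, and gland output itself was not measured. All 7 markers of the gland, Eig71Ee and the glue genes Sgs1, Sgs3, Sgs4, Sgs5, Sgs7 and Sgs8, fell in cdk8K185 under the 14 alternatives as well, with log2 values from -6.46 for Sgs1 to -2.06 for Sgs4 and a median of -4.33, and none was at 0. Their summed level was 2113 to 3276 CPM in the cdk8K185 libraries and 30936 to 37955 CPM in the w1118 libraries. Thus the fall in sage was smaller than that in 6 of these 7 markers by its fitted value. However, Sgs4 (-2.06, SE 0.34) and Eig71Ee (-2.46, SE 0.23) were close to sage (-2.28, SE 0.13). The ratio of sage to Sgs3 was 0.0197, 0.0225 and 0.0369 in cdk8K185, against 0.00563, 0.00563 and 0.00874 in w1118. Ratios of sage to the other markers were not computed, so that of Sgs3 does not stand for all of them.

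Of 7 other regulators of gland formation tested, Scr and da were lower and 0 were higher, so that 28.6% were called beside 36.9% of all genes. Scr, the Hox gene that specifies the gland, was at 12.6 ± 2.05 CPM in cdk8K185 and 20.1 ± 2.46 CPM in w1118 (SD, n = 3 each), without overlap between libraries (log2 fold change -0.68, SE 0.16, edgeR adjusted p 0.0137). Its call was lost with library totals (-0.46, edgeR adjusted p 0.0684). The bHLH partner gene da was at the threshold (-0.29, SE 0.10, edgeR adjusted p 0.0499) and kept its call in 3 of 14 alternatives. The Hox cofactor genes exd and hth, sens, trh and toe were not called, with values from -0.38 to 0.27, and hkb had at most 5 counts in any library and was not tested. Without cdk8K185 replicate 1, and likewise without cdk8K185 replicate 3, 0 of these genes were called.

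Genes of the early secretory pathway, of the kind that CrebA activates, were mostly not called. Of 29 genes tested, 5 were higher, 0 were lower and 24 were not called, a share of 17.2% beside 36.9% of all genes, and the median log2 fold change was 0.13. Those called were SrpRalpha (0.57) and SrpRbeta (0.41), which form the receptor of the signal recognition particle, the coatomer genes alphaCOP (0.57) and beta'COP (0.50), and the COPII coat gene Sec31 (0.34), whose call was kept in 5 of 14 alternatives. The translocon gene Sec61alpha was at 363 ± 1.41 CPM in cdk8K185 and 397 ± 32.6 CPM in w1118 (SD, n = 3 each, log2 fold change -0.13, edgeR adjusted p 0.343). With library totals 14 of the 29 were called, all as higher, but 4655 of all 10632 genes tested were then called, 3452 as higher. With DESeq2 5 were higher and 1 was lower, and without cdk8K185 replicate 1 the count was 3.

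Markers of the eye disc were examined because eyg acts there. The median log2 fold change of the 8 was -0.29 (-0.07 with library totals), and of the 8 eya (-0.61, edgeR adjusted p 0.00624) and Optix (-0.65, edgeR adjusted p 0.0404) were called, a share of 25% beside 36.9% of all genes. The other 6 (ey, toy, so, dac, ato and gl) were not called, and so, dac and gl overlapped between the genotypes. The summed level of the 8 was 92.4 to 99.1 CPM in cdk8K185 and 110 to 122 CPM in w1118, and the part of eye disc tissue in the eyg value was not tested. With library totals 0 of the 8 were called. Among 5 tracheal markers, Gasp, a chitin-binding protein, was higher (427 ± 80.8 CPM in cdk8K185 and 153 ± 45.0 CPM in w1118, SD, n = 3 each, log2 fold change 1.48, edgeR adjusted p 0.0049), and the other 4 were not called. The summed level of the tracheal markers was 872 to 1085 CPM in cdk8K185 and 524 to 764 CPM in w1118. Gasp weighs heavily in that sum, and the other 4 went in both directions. Means in cdk8K185 and w1118 were 322 and 249 CPM for verm and 14.9 and 13.1 CPM for btl. They were 39.4 and 41.3 CPM for tgo and 190 and 211 CPM for serp. Of the 3 neuronal markers none was called, and their summed levels overlapped, at 74.2 to 84.5 CPM in cdk8K185 and 77.1 to 100.1 CPM in w1118. Of the 5 fat body markers Fbp1 was lower (-3.10) and the others were not called, again a share of 20%.

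**Figure D4:**
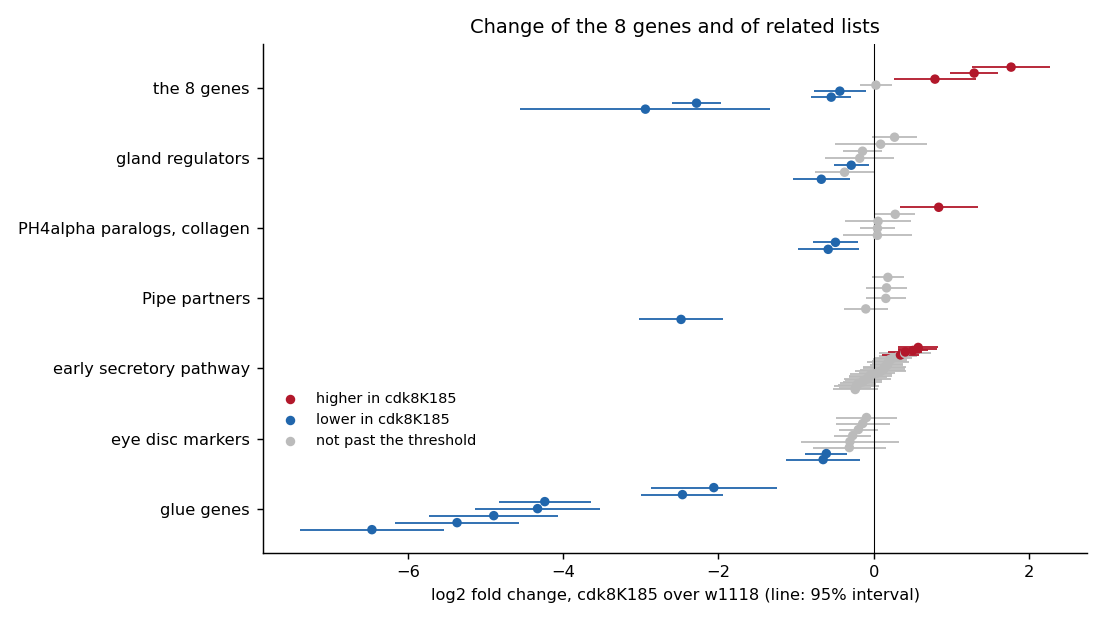
Log2 fold change of cdk8K185 over w1118 (horizontal axis) for the 8 genes and for each tested gene of the related lists, with 95% intervals as lines and the call as colour. The 8 genes span -2.94 to 1.77, the 7 glue and gland markers lie between -6.46 and -2.06, and the early secretory genes stay between -0.24 and 0.57.

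The genes whose profile was most like that of sage over the 6 libraries were Tsp42Ep, Adk3, Tango9, CG33493 and Rpn11, with Pearson's r from 0.996 to 0.998 in log2 CPM, among 7569 genes with a mean log2 CPM of at least 3. Tsp42Ep, a tetraspanin gene, was at 35.0, 44.3 and 43.6 CPM in cdk8K185, against 355, 359 and 407 CPM in w1118. The order of these genes is a description only, since all points share the genotype difference and 493 genes (6.51%) had an r over 0.95. Of the 6 glue genes, r with sage ran from just under 0.95 for Sgs4 to 0.995 for Sgs5, and for wbl it was 0.984.

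**Figure D5:**
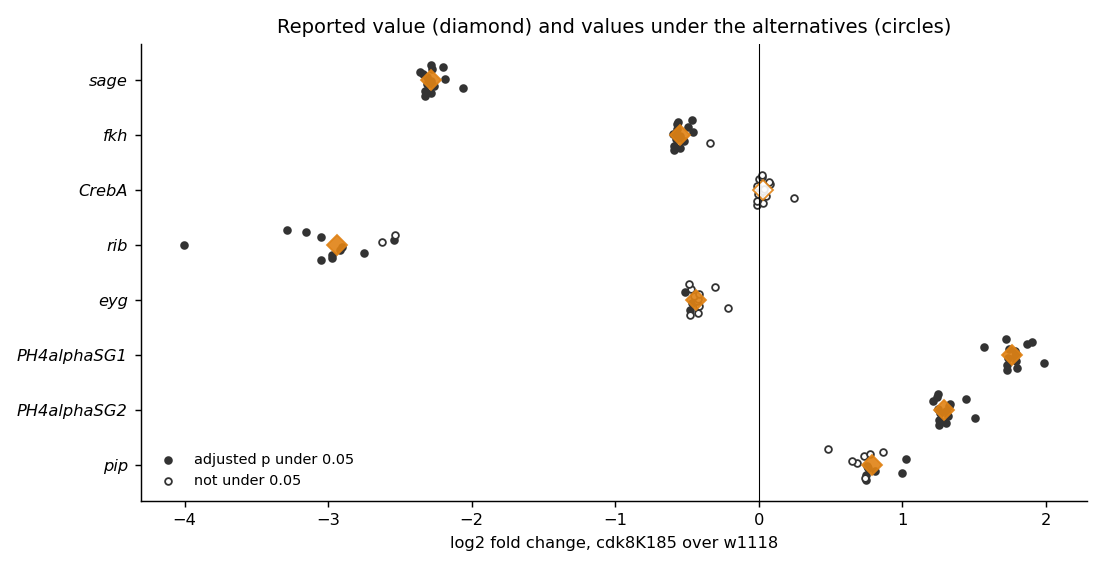
Log2 fold change of cdk8K185 over w1118 for each of the 8 genes as reported (diamond) and under the alternatives (circles, filled where the adjusted p was under 0.05). The values of sage, PH4alphaSG1 and PH4alphaSG2 are filled throughout, those of eyg, pip, rib and, by 1 circle, fkh are mixed, and CrebA lies around 0.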

How the data were processed

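The authors deposited 1 table of raw counts per gene for the 6 libraries, as whole numbers that were not normalized. The submitters' processing notes name STAR, featureCounts, DESeq2 and the build dm6. Their settings, the annotation and the use of strand are not given in the sources used here, so reads of overlapping or similar genes are uncertain. Symbols and 1-based coordinates came from the BDGP6.54 annotation (dm6 coordinates), which matched 17477 of 17562 identifiers.

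Counts were tested with edgeR 4.0.16 in R 4.3.3 (filterByExpr at a minimum count of 10 and a minimum total of 15, TMM, robust glmQLFit and glmQLFTest on genotype, two-sided, Benjamini-Hochberg over 10632 genes). The SE is the absolute log2 fold change over the root of F, and 95% intervals use the t distribution with the degrees of freedom of the fit. CPM per kb used merged exon length. Replicates are pools of larvae. No other detail of their origin was used, so p-values measure the spread between these libraries. No libraries of a genotype agreed within sampling noise (chi-square per degree of freedom 17.9 to 43.7).

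The rule for the 8 genes uses no measured value, but the genes, the lists and the tests were chosen with earlier results of these data known. Named genes are the 8, up to 4 called genes per direction of each list (for the early secretory list 5 were named), the called gland markers, the 5 genes most like sage, Cdk8 and I-2. Further names are given as such or to complete a list. Alternatives were DESeq2 1.42.0, limma-voom (limma 3.58.1), RLE size factors, library totals, filters of at least 10 counts in every library or 1 count in some library, dropping each library in turn, and a block for the replicate number. The roX1 term was added after seeing the data. The tracheal marker name dys had no match.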

Additional observations from a re-analysis of the deposited data

How the results depend on the processing

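Over 14 results and 14 alternatives, 153 of 195 refits left the direction and the call as reported, or, for counts of genes, moved them by no more than 1.5 times. The cause of each change below was not tested, except that library totals raised the log2 fold changes of all genes by a median of 0.22 and leaving out a library lowers the number of samples. With library totals, fkh was at -0.34 and eyg at -0.22, neither called, 14 early secretory genes, 3 Pipe partners and 1 gland regulator were called, the last, trh, as higher. The call of eyg was lost with DESeq2 (-0.48), limma-voom (-0.42), at least 1 count in some library (-0.42) and the roX1 term (-0.49), and that of pip with limma-voom (0.74) and the roX1 term (0.48). CrebA, not called, turned to -0.0139 with DESeq2, -0.0134 with RLE size factors, -0.0034 with at least 10 counts in every library and -0.0131 without cdk8K185 replicate 2, and ran up to 0.0775 with 1 library left out. With limma-voom, with at least 1 count in some library and with the roX1 term, 1 gland regulator was called. Leaving out each library in turn gave 4 to 6 of the 8 genes called, 2746 to 3844 of all genes, 0 to 2 gland regulators, 3 to 5 early secretory genes and 1 to 3 of the PH4alpha and collagen list. The log2 fold changes then ran from -4.01 to -2.54 for rib, -0.52 to -0.31 for eyg and 0.65 to 1.03 for pip. With at least 10 counts in every library rib was not tested. Of all genes called, 2114 were higher and 1805 lower, against 3452 higher and 1203 lower with library totals. The balance turned with DESeq2 (1800 higher and 2140 lower), RLE size factors (1923 higher and 1976 lower) and the replicate block (1906 higher and 2082 lower).

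Whether replicate numbers pair the samples was not settled. Deviations of libraries with the same number correlated at -0.19, 0.51 and 0.56, so the first pair did not deviate together. Between numbers 2 and 3 the deviations correlated at -0.59 and -0.61. Deviations were taken from the mean of each genotype, so these values depend on each other and cannot decide the question. With the replicate number as a block, 6 of the 8 genes and 3988 genes in all were called, eyg was lost (-0.43), and 1 gland regulator was called.

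The depth limits rib, with at most 5 counts per cdk8K185 library, and hkb and the PH4alphaNE genes, which were not tested.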
